A study of Mus musculus with 10 samples.

Results

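Chromatin accessibility was followed across mitogen withdrawal in wild-type (WT) neural stem cells of the adult mouse subependymal zone (SEZ), comparing cells at the onset of differentiation (DIFF, 3 libraries) with proliferating neurospheres (PRO, 3 libraries). The assay was ATAC-seq: a transposase cuts and tags DNA where chromatin is open, and places with many tagged ends are called as peaks. The 6 deposited peak lists were merged on chromosomes 1 to 19, giving 115529 intervals, and the 83061 that held a peak in at least 2 lists were taken as consensus regions. For comparison, merging all 10 libraries of the series, which include 4 from cells lacking p27 (p27KO), gave 96188 regions.

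By the labels, PRO cells were cultured as neurospheres for 3 days in medium containing EGF (20 ng/ml) and FGF (10 ng/ml); another duration is given elsewhere for proliferating neurospheres, and which applies was not settled. DIFF cells came from secondary neurospheres that were seeded on Matrigel for 2 days with FGF and then kept for 24 h without mitogens and with 2% fetal bovine serum. DIFF and PRO therefore differ in mitogens, in serum and in attachment to a matrix, and the effects of these cannot be told apart here. The p27KO cultures were treated in the same ways, with 2 libraries per condition. All donors were 10-week-old mice and each library was made from 50000 cells. The labels call replicates biological without naming the animals or cultures behind them, so p-values measure the spread between these libraries.

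Cells of the SEZ that divide in response to EGF and FGF stop cycling when these mitogens are removed, and go on to form neurons, astrocytes and oligodendrocytes. Receptor signalling through ERK keeps AP-1 factors, dimers of Fos and Jun proteins, active in dividing cells. Nuclear factor I (NFI) proteins are known for driving astrocyte genes, TEAD factors act with the serum- and adhesion-sensitive co-activators YAP and TAZ, and E-boxes are bound by basic helix-loop-helix (bHLH) factors that control neural fate. Most of the elements that such factors use lie away from promoters.

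Read numbers per library are unknown, since only peaks are listed. The DIFF lists held 61783, 57534 and 88738 peaks and the PRO lists 80179, 78087 and 76372, so the DIFF lists differed more among themselves than from the PRO lists (exact permutation test, two-sided p = 0.40, n = 3 per group, where the smallest possible p is 0.10). Promoter peaks, with a summit within 3 kb of a protein-coding start site, made up 27.1% ± 4.26 (SD, n = 3) of DIFF peaks and 24.9% ± 0.524 of PRO peaks, with an exact permutation p of 0.40. The median peak width was 325 ± 8.50 bp in DIFF and 355 ± 27 bp in PRO, with an exact permutation p of 0.20. Adjusted over these 3 measures, each p was 0.40. Since fold enrichments from lists of unequal depth cannot be compared directly, each region was placed by its rank within its own list, on a scale from 0 for the lowest to 100 for the highest. Regions without a peak shared the lowest rank, which fell between percentile 7.04 and 19 depending on the list. Normal scores of these ranks correlated at 0.851 to 0.875 within groups (6 pairs) and at 0.696 to 0.723 between groups (9 pairs). These values cover all consensus regions, including those without a peak in some lists.

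Promoters of neural stem cell markers held peaks in both conditions, but at mean ranks below that of the median gene promoter. The median over all gene promoters stood at percentile 84.2 in DIFF and 81.5 in PRO. All 10 promoters of the neural stem cell markers, among them Sox2, Nes, Pax6, Nr2e1 and Sox9, held a peak in all 6 lists, at mean percentiles of 73.0 to 76.3 in the DIFF and 65.0 to 72.5 in the PRO libraries. Promoters of Alb, Myog, Hnf4a, Cd3e, Krt5 and Pou2af1, genes of non-neural tissues, were not among the tested regions, and 0 of the 3 that were tested (Cdx2, Ins2, Myod1) held a peak in all 6 lists. The microglial promoters Cx3cr1, Itgam, Ptprc, Tyrobp and Spi1 and the endothelial promoters Pecam1, Cdh5, Tek, Cldn5, Emcn and Tie1 were not among the tested regions either. Of those tested, 4 of 5 microglial promoters (Aif1, Csf1r, P2ry12 and Tmem119) and 3 of 4 endothelial ones (Erg, Flt1 and Kdr) held a peak in all 6 lists. The mean percentile of the 5 microglial promoters that were tested ranged from 48.9 to 51.5 in the DIFF and from 52.1 to 58.2 in the PRO libraries, and that of the 4 endothelial ones from 52.4 to 57.0 and from 63.7 to 65.4. P2ry12, a microglial receptor gene, and Erg, an endothelial ETS factor gene, were called lower at DIFF, with changes of −0.74 ± 0.18 and −0.85 ± 0.22 (SE). P2ry12 still stood at percentiles 75.4, 73.0 and 76.0 in DIFF. The other tested microglial promoters were not called and went both ways (Csf1r 0.56, Aif1 0.11, Tmem119 −0.59, Cd68 −0.46). The other endothelial ones were not called and had lower means (Kdr −0.33, Flt1 −0.11, Sox17 −0.095). For the 9 ependymal promoters the ranges overlapped (50.9 to 63.2 in DIFF, 60.04 to 64.6 in PRO), as they did for the 8 of mural cells and fibroblasts (50.2 to 55.8 and 51.7 to 54.9), with no promoter of either list called. The part of other cell types in the results below was not tested.

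Mitogen withdrawal was accompanied by a change of rank at a minority of regions, in both directions. Changes are given as the mean normal score in DIFF minus that in PRO, on a scale where 1 is the SD of all regions, so they are differences in rank and not folds. With limma and Benjamini-Hochberg adjustment over all regions, 6968 regions (8.39% of 83061) were called higher at DIFF and 6677 (8.04%) lower. The number of higher calls depended on where regions without a peak were placed, because short DIFF lists leave them at a higher rank: 1934 of the higher calls and 0 of the lower calls had a peak in only 2 of the 6 lists. When all such regions were given 1 common low score, an alternative added after seeing the data, 4226 regions were called higher and 7328 lower, and the share of higher calls went from 51.1% to 36.6%. The regions called in the same direction with both treatments, 4218 higher (5.08%) and 5499 lower (6.62%), are the ones counted from here on, unless stated. Of these calls, 43.4% were higher. The 3 DIFF and 3 PRO libraries did not overlap at any of them, but the calls were made on these same libraries, so this is no separate support. Some uncalled regions, such as the Gfap promoter, were without overlap as well.

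Regions that rose and fell moved over much of the scale. Those called higher stood at a median percentile of 13.7 in PRO and 63.0 in DIFF, and those called lower at 61.0 in PRO and 18.0 in DIFF. The median change was 1.24 and −1.08. No PRO library had a peak at 1789 of the 4218 higher regions, and no DIFF library at 2470 of the 5499 lower regions, while 1318 and 1139 held a peak in all 6 lists. Lack of a peak means that none was called in that library, which does not show closed chromatin. Leaving out 1 library at a time gave 2933 to 4381 higher and 2700 to 4895 lower calls; the lower calls fell by more than 1.5 times without DIFF replicate 1 (3150) and without PRO replicates 1, 2 or 3 (2709, 2700 and 2946).

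**Figure D1:**
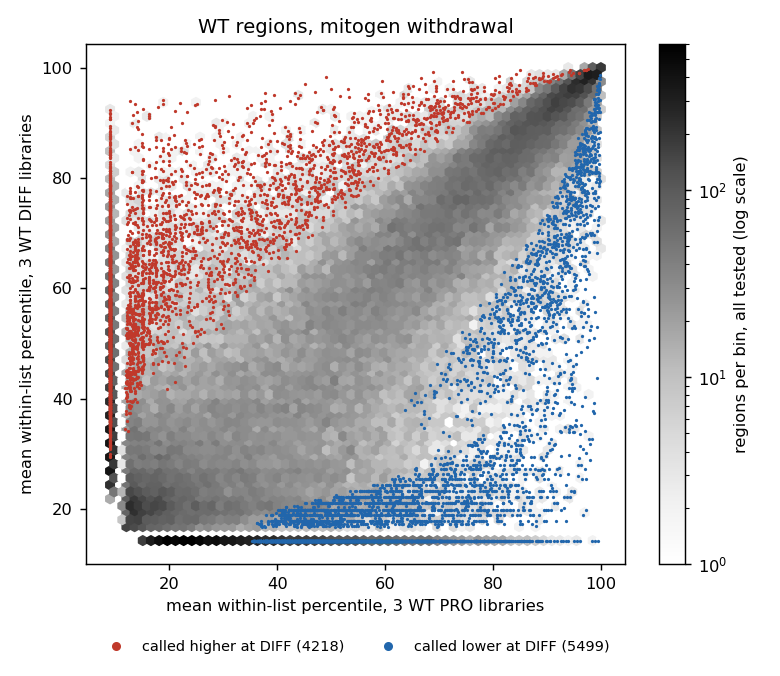
Mean within-list percentile of each of the 83061 regions in the 3 WT PRO (horizontal) and 3 WT DIFF libraries (vertical), with grey hexagons for all regions on a log colour scale and coloured points for the 4218 regions called higher and 5499 called lower with both treatments of regions without a peak. Called regions lie away from the diagonal, and lines of points along the axes are regions where no library of a group had a peak.

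Changes were concentrated away from promoters. Of the 64397 distal regions, with a summit more than 3 kb from a start site, 6% were called higher and 7.98% lower, against 1.89% and 1.94% of the 18664 promoter regions. Introns (6.72% higher, 7.91% lower, of 28987), exons (4.95% and 7.96%, of 2022) and intergenic DNA (5.45% and 8.03%, of 33388) were alike in the share that fell. Called distal regions lay at a median of 45.0 kb (higher) and 46.3 kb (lower) from the nearest start site, compared with 39.4 kb for all distal regions. Their median GC content was 49.3% and 49.8%, against 49.8% for all distal regions. Regions that moved were mixed along the chromosomes: among the adjacent regions within 50 kb of a higher region, 6.54% were higher and 7.83% lower, and among those of a lower region 8.70% were lower and 6.02% higher.

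Sequence separated the distal regions that rose from those that fell more clearly than position did. The short motifs of 25 factor families were searched on both strands within 100 bp of each summit in GRCm38, and their shares are given as a description, without a test. The AP-1 motif TGANTCA was present in 27.3% of the distal regions called lower, in 4.4% of those called higher and in 10.1% of all distal regions. Of the 6489 distal regions with this motif, 21.6% were called lower and 2.62% higher. The related CRE motif TGACGTCA, bound by CREB and ATF proteins, was rarer but split in the same direction, with 1.09% of lower, 0.129% of higher and 0.427% of all distal regions. The E-boxes CAGCTG and CAGATG are 2 of the E-box letter sets that neural bHLH factors bind. They were present in 34.5% and 28.1% of lower regions and in 14.8% and 12.3% of higher regions, against 22.7% and 19.6% of all. Not all E-boxes were more frequent in lower regions. CAGGTG was present in 11.1% of lower, 5.12% of higher and 11.5% of all distal regions, and CACGTG in 2.78%, 2.20% and 3.00%. The ETS motif CAGGAAG was found in 17.6% of lower, 7.27% of higher and 11.3% of all distal regions, and the nuclear receptor motif AGGTCA in 17.7%, 8.48% and 11.4%.

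Distal regions that rose held other motifs. The NFI motif TTGGCA was present in 36.2% of higher, 19.2% of lower and 20.8% of all distal regions. The TEAD motif GGAATG was present in 25.8%, 15.3% and 16.0%, and the homeodomain motif TAATTA in 8.48%, 4.13% and 4.51%. The CTCF core TAGGGGGC, from an insulator protein, was rarer in both called sets (0.310% of higher and 0.584% of lower) than in all distal regions (1.18%). The motifs of RUNX (TGTGGTT) and forkhead factors (TGTTTAC) differed little between higher, lower and all distal regions, at 4.73%, 4.71% and 4.34% for RUNX and 3.34%, 3.00% and 3.02% for forkhead. Motifs searched in the same window can overlap and are not independent.

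The AP-1 and NFI shares were similar in regions with a peak in every list and with single libraries left out. Among distal regions with a peak in all 6 lists, the AP-1 motif was present in 24.6% of the 1072 lower, 4.21% of the 1163 higher and 8.18% of all 25003 regions, and the NFI motif in 21.9%, 36.0% and 21.8%. With each library left out in turn, AP-1 stayed between 24.3% and 31.7% of lower and between 4.08% and 4.89% of higher regions, and NFI between 34.5% and 37.5% of higher and 18.6% and 19.3% of lower regions. AP-1 together with CAGCTG, and NFI together with TEAD, gave larger shares than either motif alone. Of the 1610 distal regions with both AP-1 and CAGCTG, 26.6% were lower and 1.55% higher, compared with 20.0% and 2.97% of those with AP-1 without CAGCTG, 10.3% and 4.21% of those with CAGCTG without AP-1, and 5.32% and 7.01% of those with neither. Of the 2196 with both NFI and TEAD, 15.7% were higher and 6.60% lower, against 9.41% and 7.51% with NFI without TEAD, 8.08% and 7.89% with TEAD without NFI, and 4.23% and 8.18% with neither. Where AP-1 and NFI stood in the same window, 19.9% of the 1337 regions were lower and 4.86% higher, compared with 22.0% and 2.04% of those with AP-1 without NFI. In promoter regions the AP-1 motif was present in 24.2% of lower regions, with 4.55% of higher and 4.20% of all, so the share in higher regions was not below that of all regions there.

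**Figure D2:**
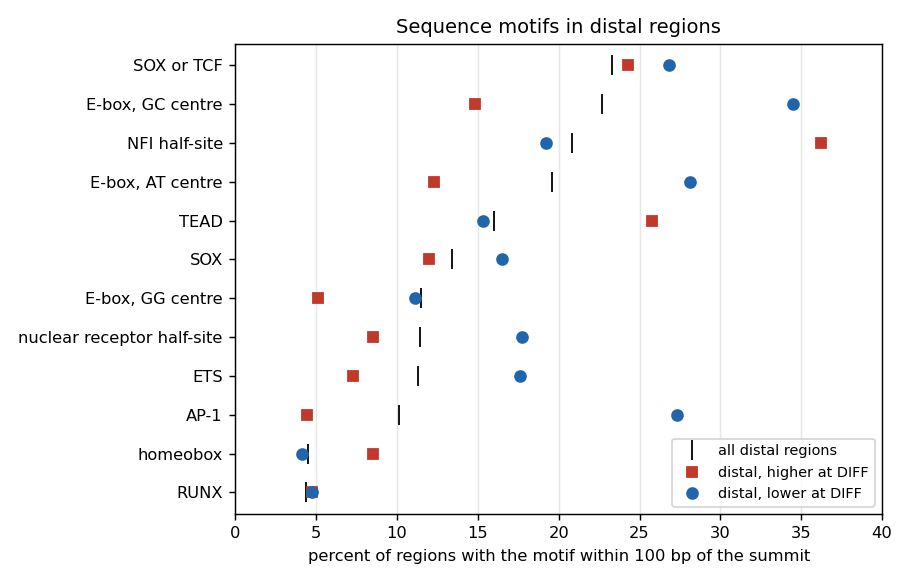
Percent of distal regions with each motif within 100 bp of the summit, for the motifs found in at least 4% of all distal regions, with squares for the 3866 regions called higher, circles for the 5136 called lower and black ticks for all 64397. AP-1, ETS, nuclear receptor and 2 E-box motifs lie above the tick in lower regions and below it in higher regions, while NFI, TEAD and homeobox lie above it in higher regions.

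Windows of 101 bases around the summit are shown for the distal regions named further on that held the motifs, with the plus strand of GRCm38 written 5′ to 3′. In windows of this length, AP-1 was found in 6.02% and CAGCTG in 14.3% of all distal regions. Among the 17 falling windows examined for printing, 3 held AP-1 and 3 held CAGCTG. These are regions near the progenitor genes Meis1 and Nfib, the BMP target Id3, the matrix gene Tnc, the bZIP gene Atf3 and the cell cycle gene E2f1, and capitals mark AP-1 or CAGCTG:
Meis1, chr11:18941098-18941198: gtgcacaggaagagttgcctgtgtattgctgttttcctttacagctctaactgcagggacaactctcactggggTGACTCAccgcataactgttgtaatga
Nfib, chr4:82435927-82436027: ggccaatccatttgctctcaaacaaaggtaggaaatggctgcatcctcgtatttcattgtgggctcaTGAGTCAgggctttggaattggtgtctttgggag
Id3, chr4:136117171-136117271: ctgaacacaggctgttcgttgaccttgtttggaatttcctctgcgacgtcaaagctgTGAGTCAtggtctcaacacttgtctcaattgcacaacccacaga
E2f1, chr2:154577547-154577647: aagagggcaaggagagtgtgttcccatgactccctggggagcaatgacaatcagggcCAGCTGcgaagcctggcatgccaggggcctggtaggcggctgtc
Atf3, chr1:191254563-191254663: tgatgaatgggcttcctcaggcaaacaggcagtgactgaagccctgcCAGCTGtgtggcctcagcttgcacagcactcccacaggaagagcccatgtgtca
Tnc, chr4:64083963-64084063: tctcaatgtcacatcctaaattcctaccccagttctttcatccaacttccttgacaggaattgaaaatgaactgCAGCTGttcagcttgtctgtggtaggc

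Among the 28 rising windows, 4 held the NFI motif and 4 the TEAD motif. In windows of this length, NFI was found in 12.6% and TEAD in 9.08% of all distal regions. The windows with either motif lie near Malrd1, Hs3st3a1, the proliferation marker gene Mki67, the astrocyte sodium pump gene Atp1b2 and the neurexin gene Nrxn3. They also lie near the Notch co-activator gene Maml2 and the cytokine receptor gene Osmr. The Malrd1 window holds a match to the AP-1 motif TGANTCA as well, left in small letters. Capitals mark NFI or TEAD on either strand:
Malrd1, chr2:15741103-15741203: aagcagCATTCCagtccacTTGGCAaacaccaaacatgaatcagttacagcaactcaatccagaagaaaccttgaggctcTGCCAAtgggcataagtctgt
Hs3st3a1, chr11:64267775-64267875: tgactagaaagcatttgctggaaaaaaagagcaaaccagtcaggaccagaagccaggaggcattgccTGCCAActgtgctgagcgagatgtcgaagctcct
Mki67, chr7:135802916-135803016: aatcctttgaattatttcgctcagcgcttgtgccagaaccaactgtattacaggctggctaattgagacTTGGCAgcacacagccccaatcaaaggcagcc
Atp1b2, chr11:69611108-69611208: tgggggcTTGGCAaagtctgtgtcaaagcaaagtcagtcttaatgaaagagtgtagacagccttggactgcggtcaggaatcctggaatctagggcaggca
Nrxn3, chr12:88839847-88839947: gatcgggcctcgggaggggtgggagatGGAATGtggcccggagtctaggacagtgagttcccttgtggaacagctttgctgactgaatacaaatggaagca
Maml2, chr9:13603720-13603820: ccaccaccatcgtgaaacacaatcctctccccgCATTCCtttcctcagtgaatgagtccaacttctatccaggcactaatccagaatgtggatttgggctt
Osmr, chr15:6882370-6882470: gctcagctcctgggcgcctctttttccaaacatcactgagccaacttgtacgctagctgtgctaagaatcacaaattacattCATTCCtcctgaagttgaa

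Promoters changed least. With 1 region per gene, 14809 genes had a tested promoter, and 162 (1.09%) were called higher and 179 (1.21%) lower; without the second treatment of regions lacking a peak, the counts were 232 and 234. Promoters that moved were of lower rank than most: the median promoter stood at percentile 81.5 in PRO and 84.2 in DIFF, while those called higher went from 30.6 to 69.2 and those called lower from 53.7 to 17.5. Their median GC content was 55.7% in either direction, against 65.2% for all gene promoters, and 6.79% of the higher and 8.94% of the lower held no CpG within 100 bp of the summit, compared with 1.40% of all. Leaving out 1 library gave 69 to 154 higher and 67 to 178 lower promoters, and the counts under the other settings are given with the limits.

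The largest rises at promoters were at Wdr86, Tspan18, Atp6ap1l, Pax4 and Lcat. At Tspan18, a tetraspanin gene (chr2:93227645-93228317, 73 bp upstream of the start site), the DIFF libraries stood at percentiles 86.0, 82.2 and 78.3 and no PRO library had a peak, a change of 2.27 ± 0.18 (SE; limma, adjusted p = 0.0011). At Lcat, which encodes the enzyme that esterifies cholesterol on lipoproteins, the DIFF libraries stood at 61.2, 64.1 and 79.3 and the PRO libraries had no peak (1.83 ± 0.20, adjusted p = 0.0013). Pax4, a homeodomain factor gene of the pancreatic islet, had DIFF percentiles of 68.2, 79.0 and 65.8 and no PRO peak, 958 bp from the start site. Wdr86 stood at 92.8, 94.1 and 93.1 in DIFF and had a peak in 1 PRO library, at 22.4. The Wdr86 and Atp6ap1l summits lay 2238 and 2489 bp inside the gene, within the 3 kb limit but away from the start site.

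The largest falls at promoters were at Agbl1, Fam71f1, Klrb1c, Klrb1a and Abca4. Klrb1c and Klrb1a are neighbouring lectin-like receptor genes of natural killer cells and share sequence, so reads may have been split between them. Klrb1c stood at percentiles 80.2, 74.7 and 82.4 in PRO and Klrb1a at 86.9, 75.5 and 67.2, and neither had a DIFF peak; the changes were −1.92 ± 0.22 and −1.85 ± 0.25. Abca4, which encodes a retinal lipid transporter, stood at 83.6, 79.7 and 60.2 in PRO, again without a DIFF peak. Agbl1, a gene for an enzyme that trims glutamates from tubulin, showed the largest fall, from 91.3, 97.0 and 85.7 in PRO to no peak in DIFF (−2.54 ± 0.26, adjusted p = 0.0012), at a summit 2676 bp upstream of the start site. The groups did not overlap at any of these 10 promoters.

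**Figure D3:**
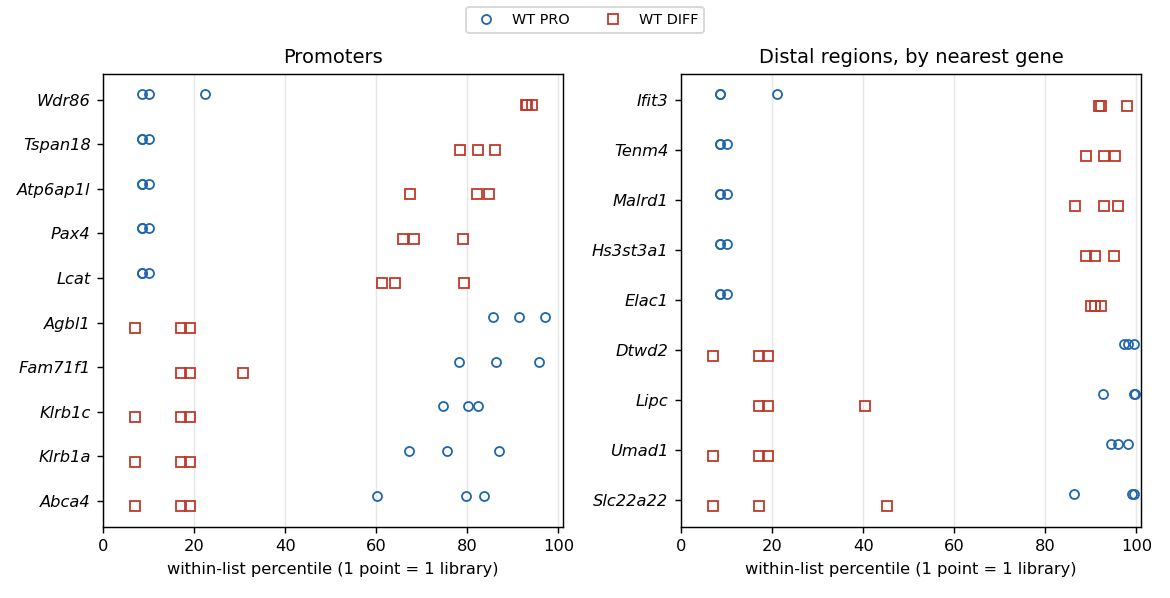
Within-list percentile of each of the 6 WT libraries (circles PRO, squares DIFF, 1 point per library) at 10 promoters and 9 distal regions among those with the largest rises and falls. The groups do not overlap at any of the 19 regions, and the clusters of points between percentiles 7.04 and 19 are libraries without a peak.

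At distal regions the rises were larger than at promoters. The region 6.21 kb upstream of the interferon-induced gene Ifit3 (chr19:34576998-34577544) stood at percentiles 97.9, 92.2 and 91.8 in DIFF and had a peak in 1 PRO library, at 20.9 (2.80 ± 0.25, adjusted p = 0.0011). A region 16.6 kb from a start site of Tenm4, a teneurin cell-surface protein, stood at 95.3, 92.9 and 88.9 in DIFF and had no PRO peak (2.79 ± 0.19). Regions nearest to Malrd1 (215 kb), Hs3st3a1, a heparan sulfate sulfotransferase gene (168 kb), and Elac1 (23.2 kb) likewise had no PRO peak, with DIFF percentiles from 86.6 to 96.0. Malrd1 and Hs3st3a1 are the nearest genes by position only, at a distance beyond the 100 kb used for gene counts.

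Large distal falls were found near Dtwd2, Lipc, Umad1 and Slc22a22. In an intron of Lipc, the hepatic lipase gene (chr9:70942510-70943226), the PRO libraries stood at 99.6, 99.8 and 92.6 and 1 DIFF library had a peak, at 40.3 (−2.99 ± 0.37). The region near Umad1 stood at 94.4, 98.2 and 95.9 in PRO and at no peak in DIFF, and that 77.1 kb from Slc22a22, an organic anion transporter gene, at 99.0, 99.5 and 86.4 in PRO and with 1 DIFF peak, at 45.3.

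Within 100 kb of a start site lay 47208 distal regions, of which 2714 (5.75%) were called higher and 3593 (7.61%) lower. They belonged to 12594 genes: 2215 had at least 1 higher region, 2797 at least 1 lower region and 734 both. Some genes thus had regions moving in opposite directions, though most of the 12594 did not. Of the others, 40 genes had 3 or more higher and no lower region and 81 had 3 or more lower and no higher region. Distal changes did not go with changes at the promoter of the same gene. Of the 115 genes with a higher promoter and a tested distal region, 18.3% had a higher distal region and 24.3% a lower one, and of the 9769 genes whose promoter was not called the shares were 19.1% and 24.1%. Of the 131 with a lower promoter, 26.0% had a higher and 23.7% a lower distal region.

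By the count of calls with regions lacking a peak at their own list's lowest rank, the genes with the most higher distal regions were Tenm4 (8 of 25 regions), Nav2 (7 of 41), Ank2 (7 of 39), Ptprd (6 of 20), Tspan9 (6 of 25), Palld (6 of 22), Ptprm (6 of 24) and Apba2 (6 of 41). Tenm4 encodes a teneurin, Nav2 a neuron navigator, Ank2 an ankyrin of axons, Ptprd and Ptprm receptor phosphatases and Palld an actin-binding protein. Longer genes offer more regions. With both treatments, Tenm4 kept 6 higher and 0 lower, Nav2 had 5 higher and 3 lower, Tspan9 4 and 1, Palld 4 and 4, Ank2 3 and 3, Ptprm 3 and 1, Apba2 2 and 2, and Ptprd 1 and 0. Tenm4 and Nav2 promoters were not called (changes of 0.24 and 0.49, adjusted p of 0.68 and 0.083).

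Among the 8 genes with the most lower distal regions, again by number and so favouring genes with many regions, Arhgap26, which encodes a GTPase-activating protein, had 8 lower of 29 regions, Dock10 (a guanine nucleotide exchange factor) 7 of 14, Arhgef3 (an exchange factor as well) 6 of 15 and Tiam2 (a Rac exchange factor) 6 of 25, and all of these were called with both treatments. Etl4 had 7 of 28, of which 4 were called with both, the cAMP phosphodiesterase gene Pde4d 6 of 46 (4 with both), the B-cell and neuronal repressor gene Bach2 6 of 24 (6 with both) and the tetraspanin gene Cd82 5 of 14 (3 with both). Higher regions were also present at Bach2 (2), Etl4 (2), Arhgap26 (1) and Pde4d (1), while Dock10, Arhgef3, Tiam2 and Cd82 had 0. The promoters of these 8 genes were not called.

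The genes of DNA replication and mitosis kept high promoter ranks after mitogen withdrawal. Of 28 tested promoters of the S phase list, 1 was called higher and 0 lower, against 1.09% and 1.21% of all gene promoters. In lists of this size, here and below, 0 or 1 called promoter is not read as a result about the list. The median percentile was 93.2 in DIFF and 87.8 in PRO. The median change was 0.33, compared with 0.11 over all gene promoters. Uhrf1, a reader of methylated DNA at replication forks, rose from 73.7, 77.7 and 77.5 in PRO to 94.3, 93.5 and 95.5 in DIFF (0.88 ± 0.17, adjusted p = 0.012), a call that was lost when peaks were ranked by −log10 p-value. Chaf1b, a histone chaperone subunit, and Mcm4, a subunit of the replicative helicase, had changes of 0.80 ± 0.22 and 0.68 ± 0.20, which passed the threshold in the first treatment only. Of the 41 distal regions of this list, 4 were lower (9.76%) and 1 higher (2.44%), compared with 7.61% and 5.75% of all distal regions near genes. With 1 library left out, 1 to 3 were lower. In such fits, lower calls over all distal regions went from 5136 to between 2552 and 4576. Higher calls went from 3866 to between 2740 and 4100. All list counts with a library left out, here and below, stand beside these changes. A region 7.71 kb upstream of E2f1, the G1/S transcription factor gene, stood at 58.6, 83.5 and 45.9 in PRO and had no DIFF peak (−1.46 ± 0.30); without DIFF replicate 3 it did not pass the threshold. Regions near E2f2 and the helicase gene Mcm5 fell as well (−1.03 ± 0.27 and −0.99 ± 0.21), and the E2f2 call was lost in 5 of the 6 fits that left out a library and the Mcm5 call in 2.

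Of the 20 mitosis promoters, all with a peak in all 6 lists, 1 was called higher and 0 lower, against 1.09% and 1.21% of all gene promoters. Kif11, the spindle motor gene, stood at 99.7, 99.0 and 99.1 in DIFF and 94.5, 92.4 and 95.3 in PRO (0.90 ± 0.19), a call that was lost without DIFF replicate 1 or PRO replicate 2 and on the percentile scale. Mki67, which encodes the proliferation antigen Ki67, had overlapping groups at its promoter (88.5, 93.8 and 93.4 in DIFF, 89.3, 94.1 and 88.4 in PRO, adjusted p = 0.82). Of 32 distal regions, 5 (15.6%, against 5.75% of all) were higher and 1 (3.12%, against 7.61%) lower. The higher count was 3 without PRO replicate 1 or 3 and between 4 and 6 without another library. The region 86.6 kb upstream of Mki67 rose from no PRO peak to 81.0, 77.2 and 70.5 (2.06 ± 0.18), that 24.2 kb from the mitotic kinase gene Cdk1 from 34.0, 39.7 and 39.3 to 93.4, 95.5 and 97.2 (2.02 ± 0.19), and that 12.8 kb from Kif11 from no PRO peak to 83.5, 54.8 and 66.6 (1.85 ± 0.24). These regions are assigned by distance, and other genes may lie further away on the other side.

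None of the 20 promoters of genes that act in cell cycle exit was called, beside 1.09% higher and 1.21% lower of all gene promoters. At Cdkn1b, which encodes p27, the DIFF libraries stood at 85.3, 88.4 and 88.8 and the PRO libraries at 84.7, 86.6 and 86.0, a change of 0.08 ± 0.17, and none of its 5 distal regions was called. No p27KO library had a peak at this promoter. Of the 95 distal regions of the list, 8 (8.42%) were higher and 3 (3.16%) lower, against 5.75% and 7.61% of all, and 5 to 8 were higher with 1 library left out, the 5 without PRO replicate 2. Regions near Gas1, a growth-arrest gene, Gadd45a, a stress-induced inhibitor of cycling, and the antiproliferative gene Btg1 had no PRO peak and rose by 1.82 ± 0.17, 1.67 ± 0.18 and 1.62 ± 0.20.

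Genes of the mitogen pathway had called distal regions at no larger a share than genes at large, and no called promoter. None of 25 promoters of mitogen receptors and ERK output genes was called, and the same held for the 12 promoters of AP-1 and related bZIP genes. Egfr, the EGF receptor gene, stood at 71.1, 76.4 and 67.5 in DIFF and 72.4, 80.6 and 80.9 in PRO at its promoter (adjusted p = 0.52). Of 145 distal regions of the first list, 10 (6.90%) were lower and 5 (3.45%) higher, against 7.61% and 5.75% of all distal regions near genes, and 0 of 25 called promoters stands beside the 1.09% and 1.21% called among all promoters. All 3 of the called regions among the 20 around Egfr were higher, by 1.36 ± 0.19 at 68.7 kb upstream and by 1.25 ± 0.26 and 0.76 ± 0.20 in introns, 9.83 and 54.2 kb from an annotated start site. The last lost its call with any library left out, and that at 9.83 kb without DIFF replicate 1 or PRO replicates 1 or 3. Regions near the FGF receptor genes Fgfr3 and Fgfr1 rose as well (1.56 ± 0.23 and 1.33 ± 0.24). With 1 library left out, 4 to 12 of the list's regions were lower, with a count of 4 without PRO replicate 1, 2 or 3, and 2 to 5 were higher, with 2 without DIFF replicate 1 and 3 without PRO replicate 1 or 3.

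At AP-1 genes, 2 of 45 distal regions were lower (4.44%) and 1 higher (2.22%), against 7.61% and 5.75% of all distal regions near genes. Without any 1 of the PRO replicates, 0 were lower. A region 36.6 kb upstream of Atf3, a stress-induced bZIP gene, fell from 83.3, 79.2 and 90.7 in PRO to a single DIFF peak at 45.8 (−1.68 ± 0.27), and a region near Batf fell by −0.96 ± 0.17. One near Jund, which encodes a Jun protein, rose (1.12 ± 0.25), with the call lost in 4 of the 6 fits that left out a library.

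For genes of the serum response, SRF and YAP targets, 10 of 169 distal regions were higher and 10 lower (5.92% each, against 5.75% and 7.61% of all). With 1 library left out, 5 to 11 were higher, with 5 and 6 without PRO replicates 1 and 3, and 5 to 12 lower, with 6, 5 and 5 without PRO replicates 1, 2 and 3. Of 31 promoters, that of Myl9, a myosin light chain of contractile cells, was called higher (85.3, 90.7 and 79.4 in DIFF, 67.5, 51.8 and 57.5 in PRO, change 0.83 ± 0.21). An intronic region of Lats2, a Hippo pathway kinase gene, rose from no PRO peak to 70.2, 73.0 and 79.0 (1.99 ± 0.18). A region near Mrtfb, an SRF co-activator gene, fell from 89.7, 83.7 and 91.3 to a single DIFF peak at 40.3 (−1.90 ± 0.24), and one near the immediate-early gene Egr2 rose by 1.55 ± 0.34. The calls at Myl9 and Egr2 were lost in 4 of the 6 fits that left out a library.

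Of 241 distal regions of neural progenitor genes, 21 (8.71%, against 5.75% of all) were higher and 16 (6.64%, against 7.61%) lower. With 1 library left out, 13 to 21 were higher and 7 to 16 lower. Without PRO replicate 2 the counts were 13 and 7, and without PRO replicate 1 the lower count was 9. Of 30 promoters, 0 were called with both treatments, beside 1.09% higher and 1.21% lower of all gene promoters. An intronic region of Meis1, a homeodomain factor gene, fell from 95.7, 96.7 and 93.9 in PRO to 48.5 and 43.1 in 2 DIFF libraries and no peak in the third (−2.09 ± 0.26), and a region 93.2 kb upstream of it fell by −1.65 ± 0.26. An intronic region of Nfib, one of the NFI genes, stood at 96.6, 91.5 and 96.9 in PRO and 36.9, 44.2 and 44.7 in DIFF (−1.90 ± 0.20). The Nfic promoter, of another NFI gene, had a change of −0.75 ± 0.21, which passed in the first treatment only. Sox2, the stem cell factor, had promoter percentiles of 81.5, 89.5 and 83.0 in DIFF and 67.7, 70.4 and 83.3 in PRO (adjusted p = 0.28), and none of its 20 distal regions was called with both treatments; changes of 0.95 and −0.83 passed in the first only. Olig2, the bHLH factor of glial precursors, stood at 64.9, 64.2 and 68.6 in DIFF and 43.6, 51.5 and 57.5 in PRO (adjusted p = 0.20), with 0 of 5 distal regions called with both treatments.

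Astrocyte genes had a larger share of rising distal regions than genes at large. Of 131 distal regions, 17 (13.0%) were higher, against 5.75% of all distal regions near genes, and 11 (8.40%) were lower, against 7.61%; with 1 library left out, 11 to 13 were higher, with 11 without DIFF replicate 1 or 2, and 4 to 7 lower. Apoe, the main apolipoprotein of astrocytes, had the only called promoter of 24, at 72.6, 79.0 and 59.8 in DIFF and 23.5, 22.3 and 23.4 in PRO (1.29 ± 0.20, adjusted p = 0.0041). A pair of regions 10.5 and 31.1 kb upstream of Aqp4, the water channel gene of astrocyte endfeet, had no PRO peak and rose by 2.27 ± 0.22 and 1.89 ± 0.20. The region 5.33 kb from Atp1b2 rose from no PRO peak to 76.5, 66.9 and 71.2 (1.91 ± 0.18). At the promoter of Gfap, the astrocyte filament gene, the DIFF libraries stood at 89.1, 86.9 and 93.1 and the PRO libraries at 72.5, 73.9 and 80.5, with no overlap but an adjusted p of 0.072. Aldoc and Timp3 promoters passed in the first treatment only (0.76 ± 0.20 and −0.83 ± 0.22).

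Distal regions of oligodendrocyte lineage genes were called at shares near those of all regions. Of 154, 14 (9.09%, against 7.61%) were lower and 8 (5.19%, against 5.75%) higher. Of 21 promoters 0 were called, beside 1.09% higher and 1.21% lower of all gene promoters. The largest changes of this list were nevertheless rises, near Lhfpl3 (2.18 ± 0.24), Opalin, a myelin gene (1.80 ± 0.19), and Nfasc, which encodes a protein of the node of Ranvier (1.72 ± 0.25). The lower count was 19 without DIFF replicate 3, 6 without DIFF replicate 1, and 6, 5 and 8 without PRO replicates 1, 2 and 3. Over all distal regions, lower calls also fell in these fits, except for the list's rise without DIFF replicate 3. They went from 5136 to 4576, 2969, 2559, 2552 and 2794, in the same order. Of 236 distal regions of neuroblast and neuronal genes, 23 (9.75%, against 7.61%) were lower and 7 (2.97%, against 5.75%) higher. Without DIFF replicate 1, 14 were lower, and without PRO replicates 1, 2 and 3, 11, 10 and 15 were. The higher count ranged from 3 without PRO replicate 1 to 16 without DIFF replicate 2 and was 4 without PRO replicate 3. The promoter of Sp8, a zinc finger factor gene of interneuron precursors, fell from 43.3, 48.8 and 33.3 to no DIFF peak (−0.89 ± 0.22, adjusted p = 0.030) and lost its call in 5 of the 6 fits that left out a library. An intronic region of Nrxn3, a presynaptic adhesion gene, rose from no PRO peak to 62.6, 65.5 and 56.2 (1.63 ± 0.18). A region near the proneural gene Neurod4 rose by 1.61 ± 0.24.

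Among signalling genes, those of BMP and TGF-beta had called distal regions more often than genes at large. In the BMP and TGF-beta list, 22 of 180 distal regions were lower (12.2%) and 15 higher (8.33%), against 7.61% and 5.75% of all distal regions near genes. With 1 library left out 10 to 15 were lower, with 14 or fewer without any library but DIFF replicate 3, and 13 to 20 higher. Regions near the ligand gene Bmp2 and the BMP target Id3, an inhibitor of bHLH factors, had no DIFF peak and fell by −2.04 ± 0.21 and −1.87 ± 0.23. One near Bambi, a decoy receptor gene, rose by 1.81 ± 0.25. Notch genes had 6 of 118 distal regions in each direction (5.08%), against 5.75% higher and 7.61% lower of all. Without DIFF replicate 1 or any 1 of the PRO replicates, 3 were lower. The called Notch regions included rises near Maml2 (2.12 ± 0.23) and the effector gene Hes1 (1.59 ± 0.18) and a fall near the effector gene Heyl (−1.67 ± 0.21). Genes of gp130 and STAT3 signalling had 4 of 71 in each direction (5.63%), against 5.75% higher and 7.61% lower of all. With 1 library left out, 1 to 3 were lower, with 1 or 2 without any library but DIFF replicate 3. The largest changes were rises near Cntf, a gliogenic cytokine gene (1.80 ± 0.23), and the cytokine receptor genes Osmr (1.35 ± 0.23) and Lifr (1.32 ± 0.21). None of the 31, 20 and 16 promoters of these lists was called, beside 1.09% higher and 1.21% lower of all gene promoters.

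Extracellular matrix and integrin genes had the highest share of lower distal regions of the 14 lists, 26 of 185 (14.1%, against 7.61% of all), with 11 (5.95%, against 5.75%) higher. With 1 library left out, 12 to 23 were lower: 12 without PRO replicate 1 or 2, 14 without DIFF replicate 1 and 16 without PRO replicate 3. Without PRO replicate 2, 7 were higher. A pair of regions 37.0 and 31.2 kb upstream of Tnc, which encodes tenascin-C of the stem cell niche, had no DIFF peak and fell by −2.10 ± 0.24 and −1.91 ± 0.24 from PRO percentiles between 72.0 and 91.0. The promoter of Spp1, encoding osteopontin, stood at 76.8, 59.5 and 73.6 in PRO and had no DIFF peak (−1.64 ± 0.23, adjusted p = 0.0029). In the other direction, a region 67.1 kb upstream of the laminin receptor gene Itga6 rose from 30.0 in 1 PRO library to 90.0, 91.4 and 92.5 (2.42 ± 0.25), and the promoter of Bcan, the brain proteoglycan brevican, rose from 32.3, 28.6 and 23.7 to 62.7, 59.5 and 53.7 (0.80 ± 0.18), with the call lost in 4 of the 6 fits that left out a library.

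**Figure D4:**
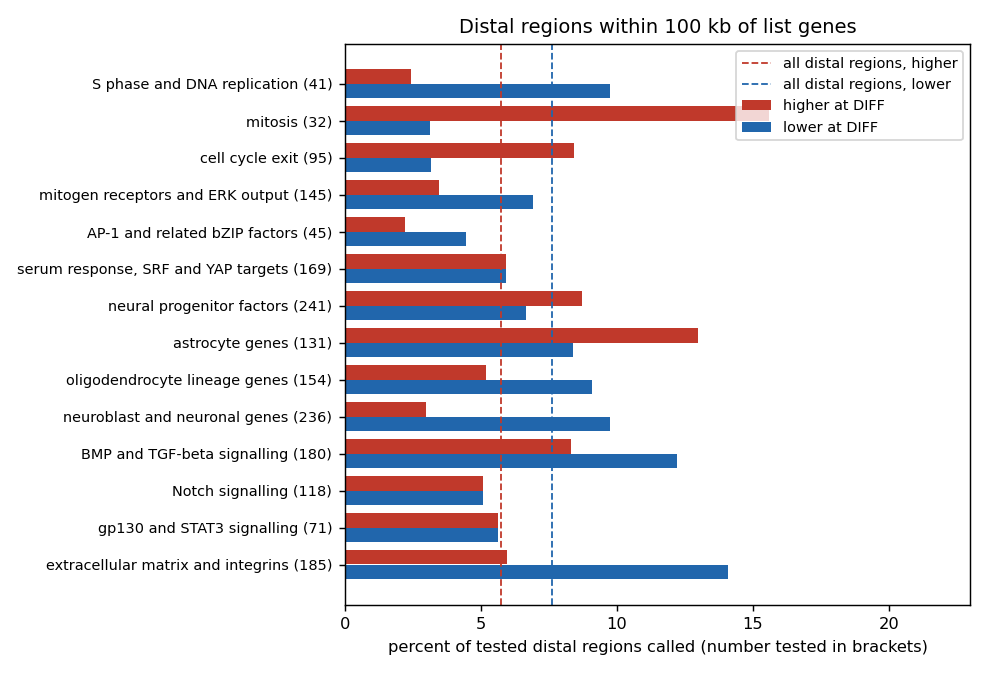
Percent of the distal regions within 100 kb of the genes of each list that were called higher (red) or lower (blue) at DIFF with both treatments of regions without a peak, with the number tested in brackets and dashed lines at the 5.75% and 7.61% of all distal regions near genes. Mitosis (5 of 32 regions, 3 to 6 with 1 library left out) and astrocyte genes have the largest shares of higher regions, and extracellular matrix and BMP and TGF-beta genes the largest shares of lower regions.

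The p27KO libraries, which had no part in choosing these regions, moved in the same direction. For this comparison, regions without a peak were given 1 common score in both genotypes, a treatment chosen after seeing the data, so that the 97 higher and 20 lower regions without any p27KO peak had a change of 0 there and did not count as moving. Of the 4218 regions called higher in WT, 95.04% had a higher mean score at DIFF in p27KO, and of the 5499 called lower 97.5% had a lower one, compared with 69.7% and 68.1% of the regions that rose or fell in WT without being called. The median change in p27KO was 1.05 at the higher and −1.23 at the lower regions. At 3470 of the higher and 4689 of the lower regions the 2 DIFF and 2 PRO libraries of p27KO did not overlap and moved in the same direction as in WT, and at 20 and 25 they did not overlap in the opposite direction. The share of uncalled regions without overlap in p27KO is not given here, so these counts have no background beside them. The region near Cdk1 stood at 92.7 and 97.0 in p27KO DIFF and at 32.0 and 33.0 in p27KO PRO, and that near Bmp2 at 82.9 and 82.7 in p27KO PRO with no DIFF peak. The region in Malrd1, without a PRO peak in WT, held peaks at 46.9 and 48.3 in p27KO PRO. In a fit of all 10 libraries, the difference between the genotypes' changes passed the adjusted threshold at 0 of 83061 regions with limma, with 3056 at an unadjusted p under 0.05 (0 and 2947 with a common score), so no difference between the genotypes was detectable with these libraries.

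**Figure D5:**
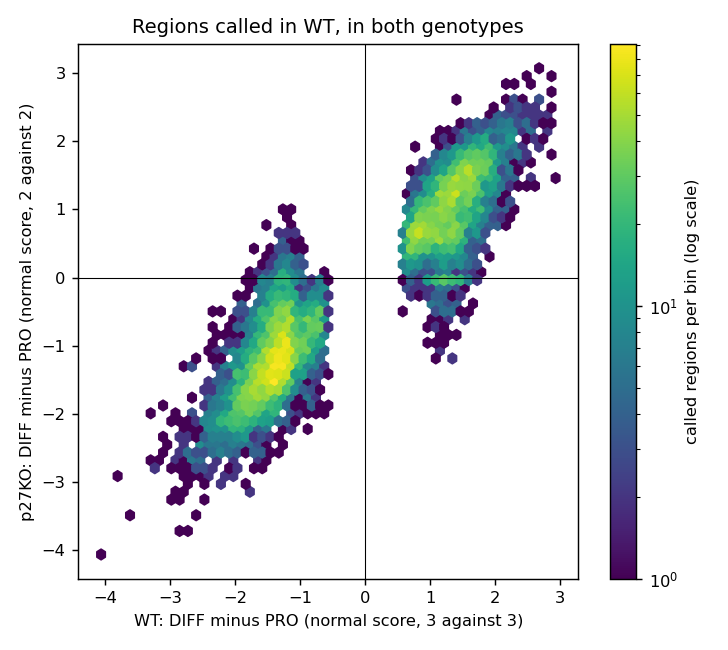
Change in normal score from PRO to DIFF in WT (horizontal, 3 libraries per condition) and in p27KO (vertical, 2 per condition) at the 9717 regions called in WT, with 1 common score for regions without a peak and colour for the number of regions per hexagon on a log scale. Most regions lie in the quadrants where both genotypes move the same way, 4009 of the 4218 higher and 5359 of the 5499 lower regions.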

How the data were processed

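ATAC-seq peak lists of 6 WT libraries (3 DIFF, 3 PRO) were analysed, with 4 p27KO libraries for comparison. According to the labels and methods, the authors trimmed reads with cutadapt and Trimmomatic, mapped them with Bowtie2 to GRCm38 and called narrow peaks per library with MACS2 at a false discovery rate of 0.05; tool versions, the read shift and the extension size are not given in the sources used here. The deposited fold enrichment is a ratio of pileup to local background at the summit. The authors' lists also hold the −log10 p-value and −log10 q-value of each peak, used only for alternatives. Reads per library are unknown, so no counting interval is given, and a list's length can change with depth alone.

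Peaks were merged at an overlap of 1 bp, and regions in at least 2 lists were kept. Within each list, regions were ranked by their highest fold enrichment, those lacking a peak sharing the lowest rank, and ranks were converted to normal scores. DIFF and PRO were compared with limma 3.58.1 (R 4.3.3), with Benjamini-Hochberg adjustment at 0.05. The read-based test of the study needs alignments, which were not used here. Library summaries were compared by exact permutation. Promoters were regions with a summit within 3 kb of a protein-coding start site in GENCODE M21 (the authors used M18), the nearest standing for the gene; distal regions were assigned to the nearest start site within 100 kb. The test was tested on simulated data. Gene lists and members were chosen with earlier results of these data known. Genes were named by rule: the 5 promoters and 5 distal regions with the largest change in each direction, the 8 genes with most distal calls in each direction, up to 3 promoters and 3 distal regions per list, and 6 fixed genes; unnamed gene models were counted only, and a few regions that met the rule are not reported here. P2ry12, Erg and the other tested microglial and endothelial promoters were named after their values were seen. The common score for regions lacking a peak, and counting calls made with both treatments, were chosen after seeing the data. The p27KO descriptions name WT cells, against their titles and genotype; groups were taken from the titles.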

Additional observations from a re-analysis of the deposited data

How the results depend on the processing

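Counts depended mainly on regions with a peak in few lists and on the number of libraries. With regions in all 6 lists only, 2100 regions were higher and 2558 lower, with 1831 and 2286 distal, whichever treatment was used. With 1 common score for regions without a peak, 4226 regions and 3874 distal regions were higher. For promoters in the first treatment, trend and robust moderation gave 551 higher and all 10 libraries in the fit gave 376. With both treatments, higher promoters numbered 244 with regions in 3 or more lists, 303 with equal list length, 403 with trend and robust moderation, 284 with all 10 libraries and 70 with the replicate block. Replicate numbers are shared between DIFF and PRO, and deviations of same-numbered libraries from their group means correlated at 0.050, 0.060 and 0.039, each library's highest value but below 0.1, so the numbers were not taken to pair libraries. The replicate block left 6516 higher and 6157 lower regions in the first treatment, and 2971 and 4158 with both, and moved no other count by over 1.5 times.

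Leaving out 1 library gave 3397 to 4998 higher and 3618 to 5201 lower regions in the first treatment and 2933 to 4381 and 2700 to 4895 with both. Distal regions ranged from 3177 to 4691 higher and 3418 to 4862 lower, and with both from 2740 to 4100 and 2552 to 4576. Promoters ranged from 82 to 157 higher and 91 to 183 lower, and with both from 69 to 154 and 67 to 178. These fits compare 2 libraries with 3, so fewer calls follow from fewer samples; the cause of other moves was not tested.

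Motif shares within 50 bp of the summit were lower, as the window is shorter, and kept their order. AP-1 was found in 2.17% of higher, 18.5% of lower and 6.02% of all distal regions, NFI in 23.5%, 11.5% and 12.6%, TEAD in 16.2%, 8.12% and 9.08%, and CAGCTG in 8.33%, 22.4% and 14.3%. Of the 79 named changes that were called, 20 lost their call under at least 1 alternative, 19 of them when a library was left out and 14 with another processing choice, 8 of these with the common score, and 0 reversed. Uhrf1 lost its call with ranking by −log10 p-value, Kif11 on the percentile scale, Mcm5 with a −log10 q-value of at least 5, an Egfr region with the replicate block, and E2f2 and Sp8 with a −log10 q-value of at least 5, with equal list length and with a further setting each. The uncalled promoter changes at Cdkn1b and Mki67 reversed to −0.0473 and −0.10 when peaks were ranked by p-value. Depth could not be measured, and a library with fewer reads can lack weak peaks.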

Other observations

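Repeats were not overrepresented among the regions that moved. At least 50% of the bases within 100 bp of the summit were masked as repeats in 3.13% of the distal regions called higher, 3.19% of those called lower and 5.51% of all distal regions. Called promoter regions lay further from start sites than most: the median distance was 1.06 kb for those called higher and 1.01 kb for those called lower, against 0.111 kb for all promoter regions. Called distal regions had a median width of 499 bp (higher) and 534 bp (lower), against 453 bp for all distal regions. The latter include regions with a peak in only 2 lists, of which 0 were called with both treatments. Over promoter and distal regions together, the median width was 235 bp with a peak in 2 lists and 807 bp with a peak in 6. The difference in width is therefore not separate from the number of lists with a peak.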
